A study of Mus musculus with 12 samples.

Results

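Hydroxysteroid dehydrogenases and steroid reductases were followed through 10 genes of the table: Hsd3b1, Hsd3b6, Hsd3b7, Hsd17b3, Hsd17b4, Hsd17b10, Hsd17b11, Hsd17b12, Srd5a1 and Akr1cl. They were chosen by symbol, whatever their level, out of 26214 gene symbols. All 10 were in the table, 9 had at least 1 count and 7 had enough counts to be tested. The RNA came from mLTC-1, an immortalized mouse Leydig tumour line grown with fetal serum, which is a single line and not primary testis tissue. There were 6 control libraries from cells given DMSO, and 6 libraries from cells given MSNBA, a nitrophenyl benzodioxole amine that the series describes as blocking the sugar transporter Glut5, at 100 µM. Both groups were harvested at 24 h, and no genetic change was made in either. Nothing in the labels tells whether the replicates came from separate cultures. The p-values therefore reflect just the spread between samples, and that spread may be technical.

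Leydig cells make testosterone from cholesterol. After the side chain has been cut by Cyp11a1, a beta-hydroxysteroid dehydrogenase of the Hsd3b family turns pregnenolone into progesterone, and Cyp17a1 leads on to androstenedione. The last step to testosterone is a reduction for which Hsd17b3 is the known enzyme of adult Leydig cells, and Srd5a1 can reduce the product further. The Hsd17b name is shared by enzymes of quite other pathways: Hsd17b4 works in peroxisomal fatty acid oxidation, Hsd17b10 in mitochondrial isoleucine breakdown and transfer RNA processing, Hsd17b11 sits on lipid droplets and Hsd17b12 serves fatty acid elongation.

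Hsd3b1 and Hsd3b6 are neighbours on chromosome 3 and carry out the same reaction, so reads of one could be assigned to the other. Their coding sequences, of 1122 bases each, differ at 112 bases (90.0% identity, longest RefSeq-linked GENCODE transcript of GRCm38). The 120-base coding stretch where they differ most, bases 42 to 161 from the start codon, holds 25 differing bases, shown in capitals. No other coding stretch of this length holds more, so it is not typical of what a read meets.
Hsd3b1: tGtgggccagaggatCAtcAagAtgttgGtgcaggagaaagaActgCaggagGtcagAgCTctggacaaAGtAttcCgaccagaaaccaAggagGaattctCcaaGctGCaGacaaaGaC
Hsd3b6: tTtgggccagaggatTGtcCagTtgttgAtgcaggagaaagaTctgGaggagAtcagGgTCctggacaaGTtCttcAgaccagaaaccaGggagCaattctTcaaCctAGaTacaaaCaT
Of the 1753 windows of 50 bases in the Hsd3b6 transcript, 38 (2.17%) occur unchanged in that of Hsd3b1. The read length is not given in the sources used here, so 50 bases serve as an illustration only. Hsd3b2 and Hsd3b3 are closer to Hsd3b6, with 94.4% and 94.5% coding identity, and 13.6% and 14.8% of their windows occur in it, so a few counts of one of these 3 genes could belong to another. Over the last 300 transcript bases, identity with Hsd3b6 among aligned bases was 73.5% for Hsd3b1, 93.7% for Hsd3b2 and 94.6% for Hsd3b3.

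The sequences upstream of the start sites are given for the member with the highest level (Hsd3b1), its low paralogue (Hsd3b6), the abundant Akr1cl and the undetected Hsd17b3. They are from RefSeq, build GRCm38.p6, 5′ to 3′ on the strand of the gene, and annotated transcribed bases are left out. Capitals mark matches to AGATAA, a letter string bound by GATA factors, or to its reverse complement TTATCT.
Hsd3b1, chr3:98859795-98860044, minus strand: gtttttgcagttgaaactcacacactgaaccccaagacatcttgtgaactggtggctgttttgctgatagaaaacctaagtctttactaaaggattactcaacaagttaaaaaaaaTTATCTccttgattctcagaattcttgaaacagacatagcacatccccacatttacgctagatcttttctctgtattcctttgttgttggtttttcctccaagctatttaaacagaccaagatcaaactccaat
Hsd3b6, chr3:98814444-98814693, minus strand: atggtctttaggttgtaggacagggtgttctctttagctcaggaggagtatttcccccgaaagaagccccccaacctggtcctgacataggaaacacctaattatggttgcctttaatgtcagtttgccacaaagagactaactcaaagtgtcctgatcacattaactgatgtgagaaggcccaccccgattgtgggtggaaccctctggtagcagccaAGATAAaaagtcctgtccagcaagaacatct
Akr1cl, chr1:65032760-65033009, minus strand: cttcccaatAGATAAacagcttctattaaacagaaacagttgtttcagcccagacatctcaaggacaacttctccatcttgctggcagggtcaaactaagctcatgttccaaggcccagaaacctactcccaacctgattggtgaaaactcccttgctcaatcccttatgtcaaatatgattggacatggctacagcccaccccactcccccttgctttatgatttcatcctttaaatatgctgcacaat
Hsd17b3, chr13:64089263-64089451, minus strand: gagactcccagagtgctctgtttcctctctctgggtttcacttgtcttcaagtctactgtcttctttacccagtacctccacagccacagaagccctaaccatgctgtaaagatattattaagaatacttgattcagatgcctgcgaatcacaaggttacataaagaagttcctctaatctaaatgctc
RefSeq windows were at hand for 9 of the 10 members. Within the 250 bases before the start site, AGATAA was found on either strand in Hsd3b1, Hsd3b6 and Akr1cl, and 9.99% of all 32817 promoter windows of this length hold it. The string AAGGTCA, a half-site for nuclear receptors such as Nr5a1, was found on neither strand in any of the 9, and 4.08% of all windows hold it. The 2 strings do not overlap each other. These matches describe letters and no binding was measured.

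The members lie far apart except for the Hsd3b pair. On GRCm38.p6 by RefSeq, Hsd3b1 spans chr3:98842356-98859794 and Hsd3b6 chr3:98805504-98814443. Hsd3b7 spans chr7:127800609-127803802. Hsd17b3 spans chr13:64058274-64089262 and Srd5a1, on the same chromosome, chr13:69573449-69611485. Hsd17b10 spans chrX:152001896-152004442, Hsd17b11 chr5:103989765-104021796 and Hsd17b12 chr2:94032697-94157909. Hsd17b4 spans chr18:50128201-50196270 and Akr1cl chr1:65013078-65032759. In GENCODE, exons of Hsd3b7, Srd5a1 and Akr1cl overlap other annotated genes (9430064I24Rik and Gm49388, Gm17108, and Gm8550). The table lists none of these 4, and reads from them could be counted under the member. Gm49388 and Gm17108 lie on the same strand as the member, so strand would not separate them. For 9430064I24Rik and Gm8550, on the opposite strand, it depends on strand use, which is not given in the sources used here. Counts were assigned to whole genes, so no exon can be singled out.

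Library totals ran from 59113 to 234225 counts in controls and from 94179 to 657251 in MSNBA, with a 2.14-fold higher geometric mean in MSNBA. Leydig markers were present in both groups: the summed level of Lhcgr, Insl3, Star, Cyp11a1, Cyp17a1, Hsd3b1 and Nr5a1 ran from 7490 to 10900 CPM (counts scaled to a common library total) in controls and from 7569 to 9388 in MSNBA, with all 7 detected in each group. Of 5 adrenal cortex markers Cyp11b2 was at 0, Cyp11b1 and Mc2r had 1 count each and Cyp21a1 had 2 over all libraries. For the 5 together, controls ran from 8.54 to 25.1 CPM and MSNBA libraries from 13.3 to 42.5. Akr1b7 carried these sums, with 45 counts in 11 libraries, and was not tested. Its pooled level was 10.3 CPM over controls (95% interval 4.14 to 21.2) against 23.8 over MSNBA (16.8 to 32.6), covering counting error only. Sertoli cell markers summed to between 1141 and 2194 CPM in controls and between 1076 and 1452 in MSNBA, carried by Clu (log2 fold change -0.38, SE 0.13, edgeR adjusted p = 0.318), with 2791 counts. Of the other 8, Dhh had 88 counts over all libraries, Gata1 had 48, Sox9 had 16, and Cldn11, Rhox5, Fshr, Amh and Wt1 had 1 to 4 each. Macrophage markers reached at most 47.6 CPM and germ cell markers at most 166.7 CPM. Within the control group, 2 libraries stood apart in Ddit3, a transcription factor of the stress response. Controls 2 and 4 had 2879 and 1571 normalized CPM against 546 to 814 in the other controls. The MSNBA libraries ran from 929 (MSNBA 5) to 2371 (MSNBA 6), all above those other controls. Control 4 lay within the MSNBA range. Normalized CPM are CPM over the tested genes, scaled by the trimmed mean of M-values (TMM). In bulk RNA, fewer cells of a type and less RNA per cell cannot be told apart.

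The cells carried mainly 3 of the 10 members. Per kilobase of transcript, Hsd3b1 had the highest control level (median 1595 CPM per kilobase, range 1098 to 2246 over 6 libraries), followed by Hsd17b10 (median 1118, range 922 to 1228) and Akr1cl (median 766, range 523 to 1113). The ranges of Hsd3b1 and Hsd17b10 overlapped, as did those of Hsd17b10 and Akr1cl, but each gene stood above the next in 5 of 6 control libraries. A wide gap followed. Hsd17b11 had a median of 101.8 CPM per kilobase and a range that lay wholly under that of Akr1cl. Hsd17b12 (median 62.1), Srd5a1 (54.3) and Hsd3b7 (40.1) came next with overlapping ranges, then Hsd17b4 (21.0), Hsd3b6 (5.67) and Hsd17b3 at 0. The name of the deposited counts points to unique molecular identifiers, but how molecules were counted was not stated. If each molecule was counted once whatever its length, the undivided CPM apply. On that scale Akr1cl (median 1349 CPM) stood above Hsd17b10 (1075 CPM) and Srd5a1 (143.6 CPM) above Hsd17b12 (118.2 CPM). Over all gene symbols, the mean control CPM of Hsd3b1 ranked 21, that of Akr1cl 84 and that of Hsd17b10 143.

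**Figure D1:**
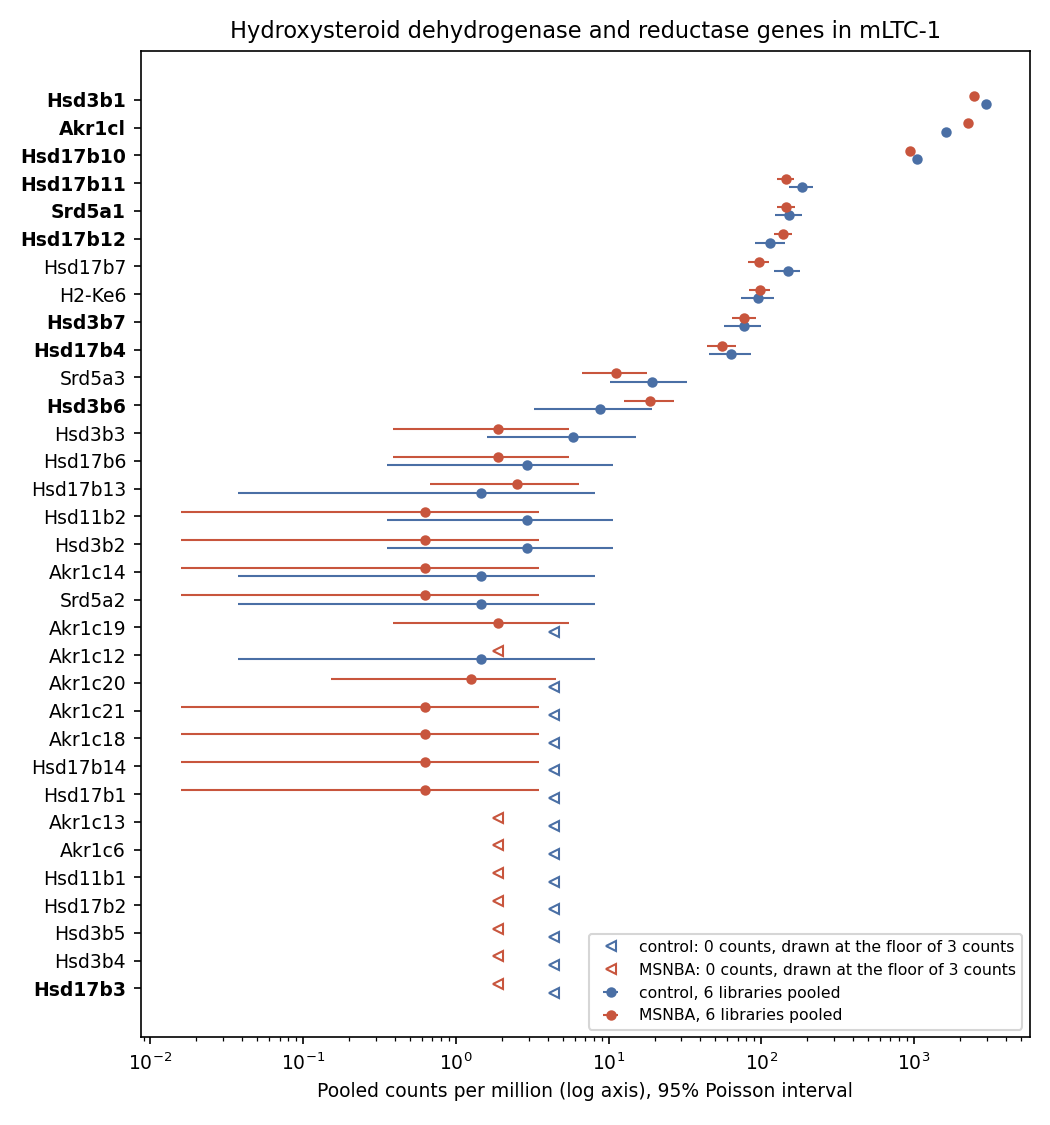
Pooled CPM over the 6 control libraries (blue) and the 6 MSNBA libraries (red) for Hsd3b, Hsd17b, Akr1c, Srd5a and Hsd11b genes, on a log axis with exact Poisson 95% intervals that cover counting error only. Bold names are the 10 members. Open triangles mark groups with 0 counts, drawn at the floor of 3 counts. Hsd3b1, Akr1cl and Hsd17b10 lie at the top of the axis, whereas Hsd17b3 had 0 counts.

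Related genes outside the 10 ranged from 0 counts to levels that could be tested. Among the remaining Hsd3b genes Hsd3b2 had 3 counts, Hsd3b3 had 7, and Hsd3b4 and Hsd3b5 had 0 over all 12 libraries. Among other Hsd17b genes Hsd17b1 had 1 count, Hsd17b2 had 0, Hsd17b6 and Hsd17b13 had 5 each and Hsd17b14 had 1. Others of that list were expressed: Hsd17b7 had 255 counts, H2-Ke6 had 222, Hsdl2 had 211 and Hsdl1 had 106, each with counts in all 12 libraries. Hsd11b1, which regenerates active glucocorticoid and marks maturing Leydig cells, had 0 counts, and the related Hsd11b2 had 3. Of the 8 Akr1c genes in the table, Akr1c6 and Akr1c13 had 0 counts and the other 6 had 1 to 3 over all libraries. Akr1cl had 4731 counts. Other aldo-keto reductase genes were expressed, with Akr1a1 at 753 ± 74.9 and Akr1b8 at 163.7 ± 65.1 normalized CPM in controls (SD, n = 6), and these were named after their values were seen. Srd5a2 had 2 counts and Srd5a3 had 31, so that Srd5a1 with 335 counts held most reads of the Srd5a genes.

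For the treatment, 0 of the 7 tested members passed an adjusted p of 0.05 by edgeR, with 1 (Akr1cl) at an unadjusted p under 0.05. The background was 0.0765% of 2614 tested genes past the adjusted threshold and 8.95% at an unadjusted p under 0.05. DESeq2 and limma-voom also called 0 members, with 1 each at an unadjusted p under 0.05. DESeq2 gave no adjusted p for Hsd3b7, Hsd17b11, Hsd17b12 and Srd5a1, so it could not call these genes. Log2 fold changes (MSNBA over control) were above 0 for 2 of these 7 genes and below 0 for 5, with a median of -0.16, against a median of -0.0082 over all tested genes. The groups overlapped in all 7, where 0.65% of tested genes had groups without overlap.

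**Figure D2:**
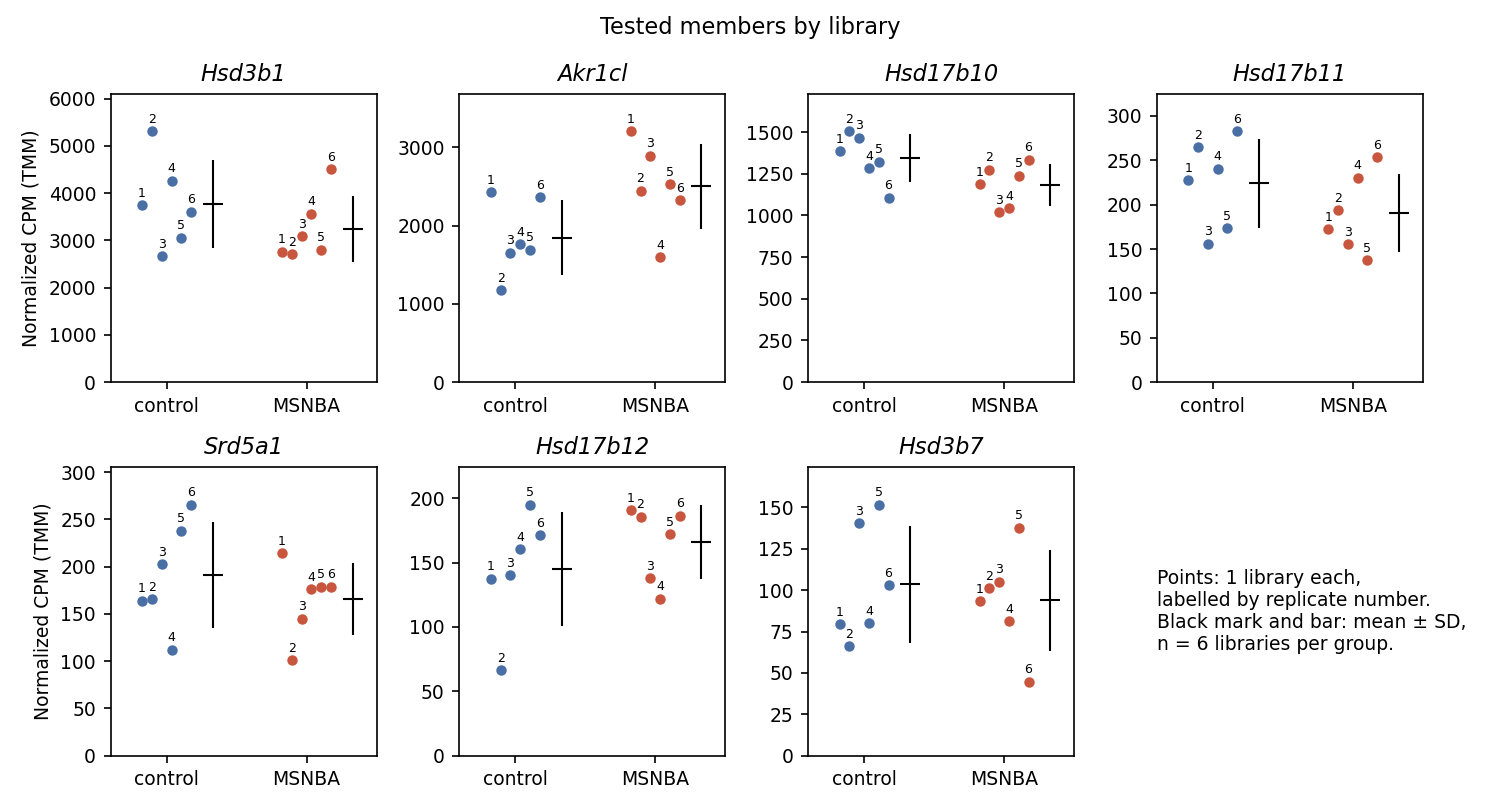
Normalized CPM of the 7 tested members in each library, with control in blue, MSNBA in red and points labelled by replicate number. Black marks and bars are the mean ± SD of 6 libraries. Control 2 had the highest Hsd3b1 value, 5311 CPM, and the lowest Akr1cl value, 1175 CPM. The groups overlap in every panel.

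Hsd3b1, which makes progesterone and androstenedione from their precursors, measured 2667 at the lowest, 3676 at the median and 5311 normalized CPM at the highest in controls. In MSNBA the values were 2709, 2944 and 4510. All 6 MSNBA libraries lay within the control range, and control 2, MSNBA 6 and control 4 were the 3 highest of the 12. The means were 3775 ± 935 and 3239 ± 700 CPM (SD, n = 6 per group), a log2 fold change of -0.23 (SE 0.16, edgeR adjusted p = 0.70). The 95% interval ran from 0.672-fold to 1.09-fold. Without controls 2 and 4, which had the 2 highest control values, the log2 fold change was -0.03 (SE 0.13). With single libraries left out it ran from -0.34 without MSNBA 6 (edgeR adjusted p = 0.436) to -0.11 without control 2.

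The spread of Hsd3b1 was shared with a number of other genes. Among 1671 tested genes with a mean of at least 20 counts, the 5 whose log2 CPM, centred within each group, ran most like it over the 12 libraries were Ddit3 (Pearson r as a measure of likeness only, 0.923), the endoplasmic reticulum chaperone gene Hspa5 (0.897), Tmed3 (0.882), Gmppa (0.882) and Ifi27 (0.869). Ddit3 was highest in control 2 with 2879 CPM and MSNBA 6 with 2371 CPM, which were also the 2 libraries with the most Hsd3b1. The other steroid genes did not all follow. Star, which brings cholesterol into mitochondria, stood at rank 8 in the same order (likeness 0.85) and Cyp17a1 at rank 12 (0.831), whereas Cyp11a1 stood at rank 1512 (-0.575). Among the other members, Hsd17b11 stood at rank 20 (0.789), Hsd17b10 at rank 720 (0.115) and Akr1cl at rank 1371 (-0.415). All of these values come from the same 12 libraries and share their depth and scaling.

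**Figure D3:**
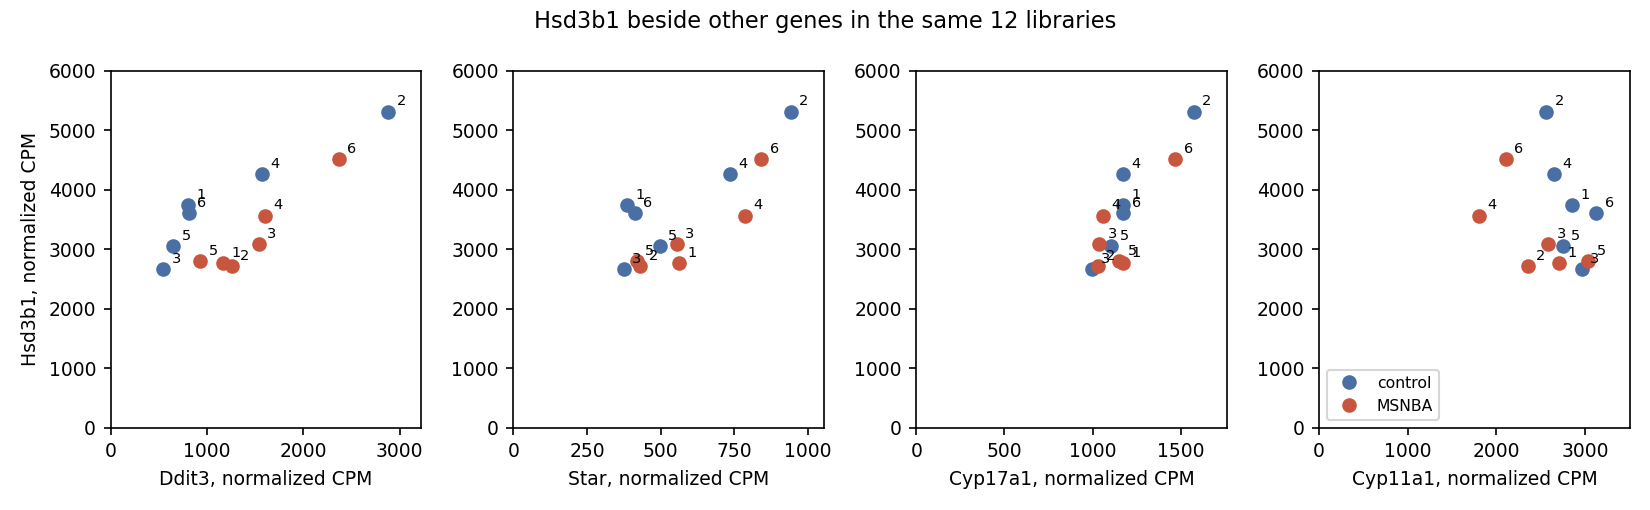
Normalized CPM of Hsd3b1 (vertical axis) against that of Ddit3, Star, Cyp17a1 and Cyp11a1 (horizontal axes) in the 6 control (blue) and 6 MSNBA (red) libraries, labelled by replicate number. Control 2 and MSNBA 6 have the highest Hsd3b1, Ddit3, Star and Cyp17a1 values, while their Cyp11a1 values are 2564 and 2110 CPM in a range from 1802 to 3129 CPM.

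Hsd3b6, the paralogue known from adult Leydig cells, had 6 counts over the 6 controls and 30 over the 6 MSNBA libraries, too few for the test across genes. No library reached more than 16 counts, and control 2 and MSNBA 4 had 0. Over the 6 controls its CPM averaged 9.46 ± 5.80, and over the 6 MSNBA libraries 15.4 ± 12.6 (SD). The difference of 5.97 CPM was near the SD of controls and below that of MSNBA (exact two-sided permutation test over 924 splits, p = 0.329, not adjusted). Of the counts of both paralogues, Hsd3b6 held 0.295% in controls (exact binomial 95% interval 0.108 to 0.641%) and 0.753% in MSNBA (0.509 to 1.07%). These intervals cover counting error only, and pooled MSNBA counts come for a large part from MSNBA 1, which gave 16 of the 30. Given the window overlap stated above, the share of these reads that belongs to Hsd3b1, Hsd3b2 or Hsd3b3 is uncertain. Of these 3 genes Hsd3b1 had by far the most counts over all libraries, 5980 against 3 for Hsd3b2 and 7 for Hsd3b3.

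Hsd3b7, whose enzyme acts on bile acid precursors in place of steroid hormones, was low. It measured 66.2 at the lowest, 91.5 at the median and 151.7 normalized CPM at the highest in controls and 44.7, 97.4 and 137.7 in MSNBA. Only MSNBA 6, at 44.7 CPM, lay outside the control range. The log2 fold change was -0.02 (SE 0.26, edgeR adjusted p = 0.993), with a 95% interval from 0.682-fold to 1.42-fold, and its sign turned in 6 alternatives. The bile acid synthesis list held 11 genes, of which 7 had a count and 0 were tested.

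Hsd17b3, the testosterone-forming enzyme gene, had 0 counts in all 12 libraries. Taken as 3 counts, the upper limit that 0 allows corresponds to 4.41 CPM for the pooled controls, 1.88 CPM for pooled MSNBA and 1.32 CPM for all libraries, covering counting error only. The exact 95% Poisson interval for 0 counts reached somewhat higher, to 5.43 CPM in pooled controls and 2.31 CPM in pooled MSNBA. By counts not divided by length, Hsd3b1 stood 676-fold above the floor of 3 in the control group. Its transcript is the longer, at 1855 bases against 1286 for Hsd17b3, so the fold per kilobase is smaller. The treatment difference of Hsd17b3 was not detectable at this depth. Of 7 markers of Leydig maturation, Hsd17b3 and Hsd11b1 were at 0, Akr1c14 had 2 counts, Sult1e1 4, Ptgds 6 and Hsd3b6 36, and only Vcam1, with 281 counts, was tested (log2 fold change -0.02, SE 0.23, edgeR adjusted p = 0.994).

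Hsd17b12, the ketoacyl reductase of fatty acid elongation, measured 66.2, 150.4 and 195 normalized CPM (lowest, median, highest) in controls and 122, 178.8 and 190.8 in MSNBA. The lowest control was control 2, and all 6 MSNBA libraries lay within the control range. The log2 fold change was 0.23 (SE 0.22, edgeR adjusted p = 0.787, interval 0.866-fold to 1.58-fold), and without control 2 it was 0.12. Of the 12 genes of the elongation cycle, 6 were tested and 0 passed in either direction by edgeR, also at an unadjusted p under 0.05. Their values ran from Hacd2 at -0.23 (SE 0.26) to Hacd3 at 0.30 (SE 0.18), with a median of 0.01. Tecr, the reductase that completes the cycle, was the most abundant of the 9 listed reductase and Hsd11b genes that are not members. It had 2389 ± 281 and 2129 ± 208 CPM (SD, n = 6 per group).

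Hsd17b10 was the most even of the members. It measured 1106, 1354 and 1506 normalized CPM (lowest, median, highest) in controls and 1019, 1213 and 1334 in MSNBA. Its coefficient of variation was 10.7% in each group, against 24.8% and 21.6% for Hsd3b1. All 6 MSNBA libraries lay below the control median, and 2 of them, MSNBA 3 and 4, below every control. The means were 1345 ± 144 and 1183 ± 127 CPM (SD, n = 6 per group), a log2 fold change of -0.18 (SE 0.11, edgeR adjusted p = 0.629) with a 95% interval from 0.757-fold to 1.03-fold. Of 10 genes for mitochondrial ribonuclease P and isoleucine breakdown, 4 were tested and 0 passed by edgeR, none of them at an unadjusted p under 0.05 either. Their values ran from Acat1 at -0.23 (SE 0.18) to Echs1 at 0.19 (SE 0.18).

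Hsd17b11, a lipid droplet enzyme gene, measured 156, 233.9 and 282.9 normalized CPM in controls and 137.7, 183.2 and 253.5 in MSNBA (lowest, median, highest). Of the MSNBA libraries 5 lay below the control median. MSNBA 5 lay below every control, and MSNBA 3, at 155.9 CPM, was level with the lowest control at 156 CPM. The log2 fold change was -0.33 (SE 0.19, edgeR adjusted p = 0.603, interval 0.606-fold to 1.04-fold). Among 9 lipid droplet genes 4 were tested and 0 passed, with 1 at an unadjusted p under 0.05 by edgeR. That gene was Plin2, which encodes a droplet coat protein, at 0.60 (SE 0.26, adjusted p = 0.446). The lowest value was that of the lipase gene Pnpla2, -0.30 (SE 0.25).

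Hsd17b4, the peroxisomal bifunctional enzyme gene, had 43 counts in controls and 88 in MSNBA and was not tested across genes. Controls ran from 0 CPM in control 2 to 93.9 CPM in control 1, and MSNBA libraries from 42.5 to 63.9 CPM, all within the control range. The means were 53.0 ± 36.4 and 53.6 ± 8.54 CPM (SD, n = 6 per group; exact two-sided permutation test, p = 0.970, not adjusted). Of 14 genes of peroxisomal oxidation, 4 were tested and 0 passed, with 1 at an unadjusted p under 0.05 by edgeR. That gene was Scp2, which encodes a sterol carrier and thiolase, at 0.48 (SE 0.22, adjusted p = 0.489). The lowest was Acaa1a at 0.10 (SE 0.21), and the median of the 4 was 0.13.

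Srd5a1, the steroid reductase, measured 112.2, 184.1 and 265.7 normalized CPM (lowest, median, highest) in controls and 101.3, 177.6 and 214.6 in MSNBA. The groups overlapped broadly, with MSNBA 2 alone below every control. The log2 fold change was -0.16 (SE 0.21, edgeR adjusted p = 0.866), with a 95% interval of 0.668-fold to 1.21-fold. Its value depended on single libraries, at -0.31 without MSNBA 1 and -0.0028 without control 6.

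Akr1cl, a member of the aldo-keto reductase family by name, had the largest value of the 7. It measured 1175 at the lowest, 1727 at the median and 2428 normalized CPM at the highest in controls and 1599, 2487 and 3205 in MSNBA. In MSNBA 4 libraries lay above every control, while MSNBA 4 and 6 lay within the control range. The means were 1846 ± 475 and 2499 ± 547 CPM (SD, n = 6 per group), and the log2 fold change was 0.43 (SE 0.18, edgeR adjusted p = 0.466, unadjusted p = 0.0309). The 95% interval, not adjusted for the number of genes, ran from 1.03-fold to 1.75-fold. The gene passed without the low-count filter (0.57, SE 0.13, edgeR adjusted p = 0.0320). In that fit 15 of 19576 genes passed, and 1 of the 9 members with counts. Without controls 2 and 4 the Akr1cl value was 0.29 (SE 0.16, adjusted p = 0.634). Leaving out the filter also moved the median of the 2614 genes from -0.0082 to 0.14.

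The level of Akr1cl ran with library depth. In controls the 2 deepest libraries, controls 1 and 6 with 234225 and 145516 counts, had the 2 highest values, 2428 and 2366 CPM. The 4 other controls, all under 100000 counts, ran from 1175 to 1764 CPM. In MSNBA the deepest libraries, MSNBA 1 and 3, had 3205 and 2890 CPM, and the shallowest, MSNBA 4 with 94179 counts, had 1599 CPM. With log2 depth beside treatment in the model, Akr1cl changed by 0.33 on the log2 scale per doubling of depth (SE 0.06, edgeR adjusted p = 0.000195), and its treatment value was 0.07 (SE 0.12, adjusted p = 0.932). When single libraries were dropped in turn, the depth value was smallest without MSNBA 4 (0.28) and greatest without MSNBA 1 (0.41), passing in each of the 12 fits. In that model 4.09% of 2614 genes passed for depth, 0.574% (15 genes) with higher levels in deeper libraries and 3.52% (92 genes) with lower. The other 6 tested members did not pass, with values from -0.09 (SE 0.10) for Hsd3b1 to 0.13 (SE 0.11) for Srd5a1. This readout was chosen after the values of Akr1cl were seen. Since MSNBA libraries were deeper, depth and treatment can be separated here only within groups, and what the depth of a library stands for was not tested.

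**Figure D4:**
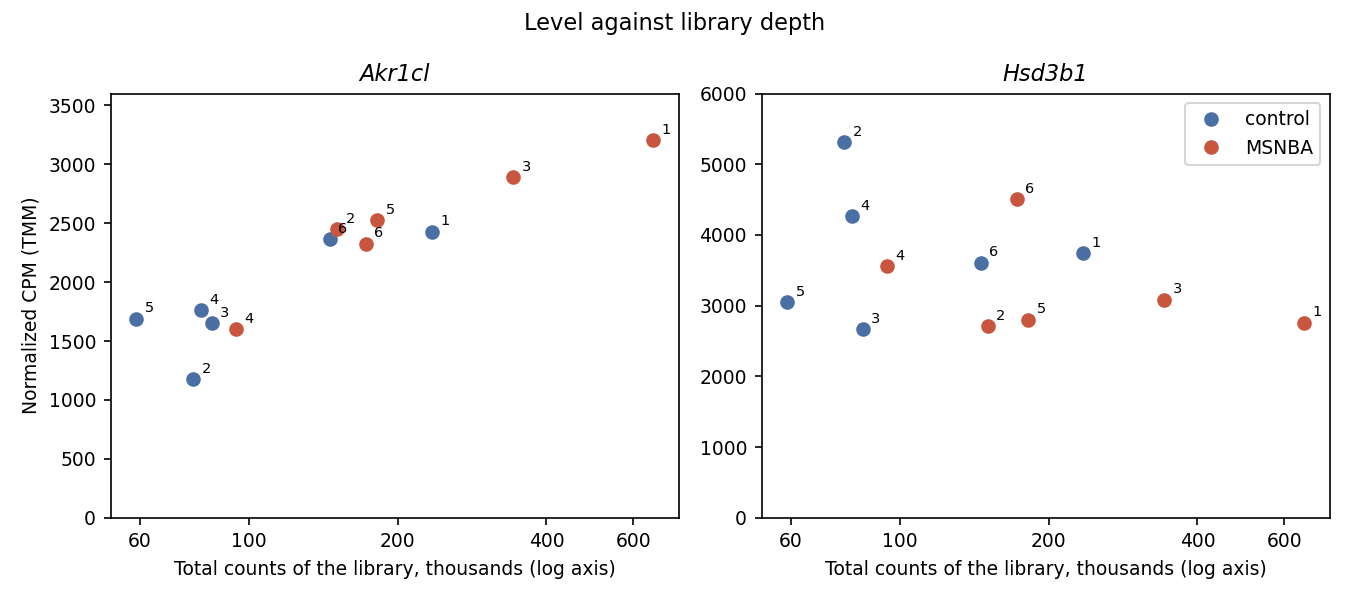
Normalized CPM of Akr1cl (left) and Hsd3b1 (right) against the total counts of each library on a log axis, with control in blue, MSNBA in red and points labelled by replicate number. Akr1cl runs from 1175 CPM in control 2 to 3205 CPM in MSNBA 1, the deepest library. Hsd3b1 is highest in control 2, at 77030 counts.

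The balance of Akr1cl and Hsd3b1, the 2 members with the highest CPM when not divided by length, differed between libraries. The 10 members together measured 4941 to 6712 CPM in controls and 5383 to 6983 CPM in MSNBA. Akr1cl counts per Hsd3b1 count ran from 0.221 to 0.656 in controls (median 0.587) and from 0.449 to 1.16 in MSNBA (median 0.903). In MSNBA 1, 2, 3 and 5 the ratio exceeded that of every control. MSNBA 4 and 6, at 0.449 and 0.516, lay within the control range. These 2 libraries and controls 2 and 4 were the 4 with the highest Ddit3 values, which ran from 1571 to 2879 CPM, against 1538 CPM in MSNBA 3, the next. Controls 2 and 4 and MSNBA 4 also had under 100000 counts, whereas MSNBA 6 had 172131. Controls 3 and 5, under 100000 counts too, had ratios of 0.62 and 0.553. The likeness of Hsd3b1 to Ddit3 was described above, so this order is no separate result. The ratio rests on the 2 values described above and was not tested.

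**Figure D5:**
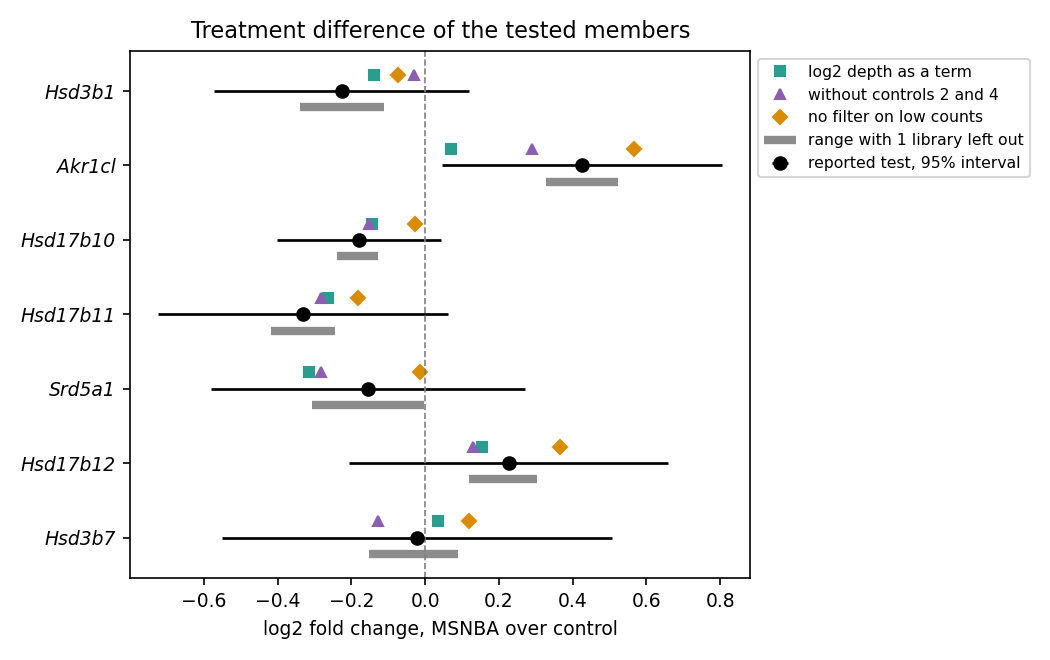
Log2 fold change, MSNBA over control, of the 7 tested members. Black points and bars are the edgeR value with its 95% interval, grey bars the range with 1 library left out, and coloured marks the value with log2 depth as a term, without controls 2 and 4, and without the low-count filter. The Akr1cl value is 0.43 in the reported test and 0.07 with depth as a term. Hsd3b1 moves from -0.23 to -0.03 without controls 2 and 4, and to -0.34 without MSNBA 6.

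The enzymes and cofactors around the members gave no call either. Of 12 upstream enzymes and cofactors 10 were tested and 0 passed, with 1 at an unadjusted p under 0.05 by edgeR, Cyb5r3, which encodes the cytochrome b5 reductase, at -0.32 (SE 0.14, adjusted p = 0.466). Cyp11a1 had a value of -0.21 (SE 0.11) and Cyp17a1 one of -0.05 (SE 0.12). Among Hsd17b genes outside the 10, Hsd17b7, an enzyme of cholesterol synthesis, measured 201 ± 39.6 and 127 ± 28.3 CPM (SD, n = 6 per group), and its log2 fold change was -0.65 (SE 0.22, edgeR adjusted p = 0.252, unadjusted p = 0.00445). H2-Ke6, which is also called Hsd17b8, had a value of 0.03 (SE 0.25), and Hsdl2 one of -0.11 (SE 0.22). Among other reductases the carbonyl reductase gene Cbr3 had a value of -0.57 (SE 0.25, adjusted p = 0.464) and its neighbour in function Cbr1 one of -0.14 (SE 0.23). Nsdhl, a sterol dehydrogenase related to the Hsd3b enzymes, had a value of -0.03 (SE 0.21).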

How the data were processed

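The authors deposited 1 table of raw counts per gene symbol for the 12 libraries (polyA RNA, tagmented), left unnormalized; the table's name points to unique molecular identifiers and RefSeq genes. BWA 0.7.4.4 and mm10 are named, per the submitters' processing notes, and how molecules were counted and with which strand was not stated in any source at hand. Groups and replicate numbers were taken from the sample titles. Members and gene lists were chosen with earlier results of these data known.

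Genes were filtered by filterByExpr (edgeR 4.0.16, R 4.3.3), scaled by TMM and tested by the robust quasi-likelihood F test on a model of intercept plus treatment. The 2614 genes tested held 79.2% of counts, and their two-sided p-values had the Benjamini-Hochberg adjustment, with calls at 0.05. Standard errors are the log2 fold change over the square root of F. Members under the filter were compared by exact permutation of mean CPM. Pooled counts have exact Poisson and shares exact Clopper-Pearson intervals at 95%. Alternatives used DESeq2 1.42.0 (with its independent filtering), limma 3.58.1, other scalings and filters, a replicate block, depth as a term and libraries left out. The depth term itself was read out after the data were seen. Transcript lengths are those of the longest RefSeq-linked GENCODE M21 transcript. Named genes were the 10 members, tested genes of the Hsd, reductase, Akr1c and upstream lists, the extremes of other lists and the 5 genes most like Hsd3b1. Ratios and marker genes were named after their values were seen.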

Additional observations from a re-analysis of the deposited data

How the results depend on the processing

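The count of genes past the threshold, 2 in the reported test, was 15 without the low-count filter, 1 with at least 20 counts in 6 libraries, 6 by DESeq2, 0 by limma-voom (259 at an unadjusted p under 0.05), 0 with depth as a term, 7 without controls 2 and 4, and between 0 and 5 with 1 library left out (5 without control 1, 4 without MSNBA 4, 1 without control 3 and 0 without controls 4 to 6 or without any one of MSNBA 1, 2, 3, 5 and 6). The count of members past it was 0 in the reported test and 1 (Akr1cl) without the filter, and 0 in the other 20 alternatives. Among these, DESeq2 gave no adjusted p for Hsd3b7, Hsd17b11, Hsd17b12 and Srd5a1. Direction held in all alternatives run for Hsd3b1, Hsd17b10, Hsd17b11, Hsd17b12, Srd5a1, Akr1cl and Hsd3b6. That of Hsd3b7 turned without the filter (0.12), with depth as a term (0.034) and in runs with 1 library left out (-0.152 to 0.0902). That of Hsd17b4 turned in edgeR without the filter (-0.0539) and with 1 library left out (-0.247 to 0.258). The cause was not tested. In the order of levels, 6 of 10 members kept their rank without division by length and 8 of 10 in MSNBA libraries.

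The replicate numbers were not taken to pair the samples: residuals of equal numbers correlated from -0.22 to 0.47 over 1672 genes, above 0.1 in 3 of 6 pairs, and 2 of 6 controls correlated best with their own number. With a replicate block 3 genes and 0 members passed, and Akr1cl had 0.44 (edgeR adjusted p = 0.0848). Depth limits Hsd3b6 and Hsd17b4, whose differences of a size near their spread were not detectable. Hsd17b3 had 0 counts, so only an upper limit on its level can be given.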
